A study of Homo sapiens with 41 samples.

Results

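Cell cycle and DNA replication genes are described here through 45 members among the 58735 genes of the count files, a list of well known genes found by mapping Ensembl gene IDs to symbols. They fall into a G1/S subset of 11 genes, a replication subset of 12 and a mitotic subset of 22. RNA was sequenced from 32 samples of 2 human cell lines, in 16 groups of line, hairpin and condition with 2 samples each. LX-2 cells come from human hepatic stellate cells, and their groups carried a short hairpin RNA named for ATF4 (shATF4) or a control one (shCtrl) under TGFbeta, Thapsigargin, AA_Dep or DMSO. HMLE cells come from human mammary epithelium, and their groups carried the same pair of hairpins under Twist_OE, Thapsigargin, AA_Dep or DMSO. ATF4 is the main effector of the integrated stress response. Thapsigargin blocks the calcium pump of the endoplasmic reticulum and so causes ER stress, TGFbeta is a fibrogenic cytokine, and Twist is a transcription factor of the epithelial-mesenchymal transition. The labels do not spell out AA_Dep or Twist_OE, give no dose or duration, and name a single shATF4 hairpin, and DMSO served as the common comparator of all conditions within a line and hairpin. Each line was immortalised with SV40 T antigen, which binds the RB proteins that restrain E2F.

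In the G1 phase, D-type cyclins with CDK4 or CDK6 and E-type cyclins with CDK2 phosphorylate the RB proteins and so free the E2F factors, which switch on replication genes. CDC6 and CDT1 then load the MCM helicase at replication origins, PCNA holds the polymerases on DNA, and ribonucleotide reductase (RRM1 and RRM2) and thymidylate synthase (TYMS) supply nucleotides. Later in the cycle CCNA2, CCNB1 and CCNB2 drive CDK1, and the kinases AURKA, AURKB and PLK1, the spindle checkpoint proteins and the motors KIF11 and KIF20A carry out mitosis until CDC20 and UBE2C mark the cyclins for destruction. Most mitotic genes are known to be timed through a promoter element called the CHR, bound by the DREAM and MuvB complexes together with FOXM1, and most replication genes through E2F sites.

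These elements are shown in 6 promoters, chosen because they hold the letters that distinguish mitotic from replication members. RefSeq windows of GRCh38.p14 (250 bases before to 50 after the start of a gene) matched 35 of the 45 members, 7 of the G1/S subset, 10 of the replication subset and 18 of the mitotic subset. The first 3 sequences are from mitotic genes and the next 3 from replication genes, written 5′ to 3′ on the strand of the gene, and capitals mark every match of the CHR letters, the CCAAT box or an E2F site on either strand.
PLK1 (chr16:23678639-23678938, plus strand): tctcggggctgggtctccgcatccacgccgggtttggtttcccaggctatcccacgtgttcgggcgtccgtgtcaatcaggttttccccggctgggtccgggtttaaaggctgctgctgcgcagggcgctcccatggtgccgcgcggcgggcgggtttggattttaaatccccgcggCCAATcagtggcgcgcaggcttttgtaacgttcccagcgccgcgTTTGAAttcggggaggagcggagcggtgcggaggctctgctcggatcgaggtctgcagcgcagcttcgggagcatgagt
BUB1B (chr15:40160819-40161118, plus strand): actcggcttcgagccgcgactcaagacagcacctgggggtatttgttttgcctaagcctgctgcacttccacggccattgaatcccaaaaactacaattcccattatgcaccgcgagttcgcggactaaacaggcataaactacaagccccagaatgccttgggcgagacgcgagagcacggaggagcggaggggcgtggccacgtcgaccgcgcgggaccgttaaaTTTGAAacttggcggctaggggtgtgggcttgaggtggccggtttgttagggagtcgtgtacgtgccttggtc
CCNB2 (chr15:59104896-59105195, plus strand): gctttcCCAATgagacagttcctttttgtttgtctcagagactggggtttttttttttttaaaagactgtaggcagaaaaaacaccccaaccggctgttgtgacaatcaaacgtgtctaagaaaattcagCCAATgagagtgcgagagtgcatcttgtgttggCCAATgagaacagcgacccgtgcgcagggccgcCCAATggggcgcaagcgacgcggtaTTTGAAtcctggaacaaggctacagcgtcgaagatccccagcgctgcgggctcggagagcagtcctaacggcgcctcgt
CDC6 (chr17:40287629-40287928, plus strand): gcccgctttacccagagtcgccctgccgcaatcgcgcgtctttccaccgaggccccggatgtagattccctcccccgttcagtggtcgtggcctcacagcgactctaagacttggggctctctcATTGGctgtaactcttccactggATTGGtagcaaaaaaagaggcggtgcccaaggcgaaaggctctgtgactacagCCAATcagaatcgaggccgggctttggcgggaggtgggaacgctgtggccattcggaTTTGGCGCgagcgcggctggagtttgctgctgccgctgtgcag
MCM2 (chr3:127598161-127598460, plus strand): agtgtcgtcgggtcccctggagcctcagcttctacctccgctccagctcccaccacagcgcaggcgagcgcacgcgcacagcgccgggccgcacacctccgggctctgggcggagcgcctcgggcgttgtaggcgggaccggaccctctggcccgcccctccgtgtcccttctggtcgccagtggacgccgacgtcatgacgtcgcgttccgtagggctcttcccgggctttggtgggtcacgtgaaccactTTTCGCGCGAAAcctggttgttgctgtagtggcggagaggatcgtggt
MCM6 (chr2:135876394-135876693, minus strand): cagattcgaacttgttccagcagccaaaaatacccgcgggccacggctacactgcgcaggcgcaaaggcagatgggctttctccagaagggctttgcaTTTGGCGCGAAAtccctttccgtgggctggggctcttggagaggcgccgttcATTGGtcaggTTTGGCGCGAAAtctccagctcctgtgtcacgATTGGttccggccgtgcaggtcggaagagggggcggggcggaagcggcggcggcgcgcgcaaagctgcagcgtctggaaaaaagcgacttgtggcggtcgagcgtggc
The CHR letters TTTGAA began 29 bases before the start in PLK1 and CCNB2 and 23 bases before it in BUB1B. PLK1 held 1 CCAAT box, CCNB2 held 4 and BUB1B none. The windows of CDC6, MCM2 and MCM6 held no CHR letters, and an E2F match stood just after the start in CDC6 and MCM2 and further upstream in MCM6.

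Searched on both strands, TTTGAA was found in 12 of 18 mitotic members (66.7%), 1 of 10 replication members (10%) and 0 of 7 G1/S members, against 18.2% of all 27305 genes with a window. The E2F letters (TTTCCCGC, TTTGCCGC, TTTCGCGC or TTTGGCGC, where matches on the 2 strands can overlap, as in MCM2) were found in 11.1%, 80% and 42.9% of the mitotic, replication and G1/S members, against 3.99% of all genes. CCAAT was found in 94.4%, 70% and 42.9% of the same subsets, against 39.7% of all genes. The letters TGATGNAA, the composite element bound by ATF4 with a C/EBP partner, were found in 1 mitotic member, CDC25C, and in none of the replication or G1/S members with a window, against 4.46% of all genes. A match describes the letters of a window and is no evidence of binding.

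**Figure D1:**
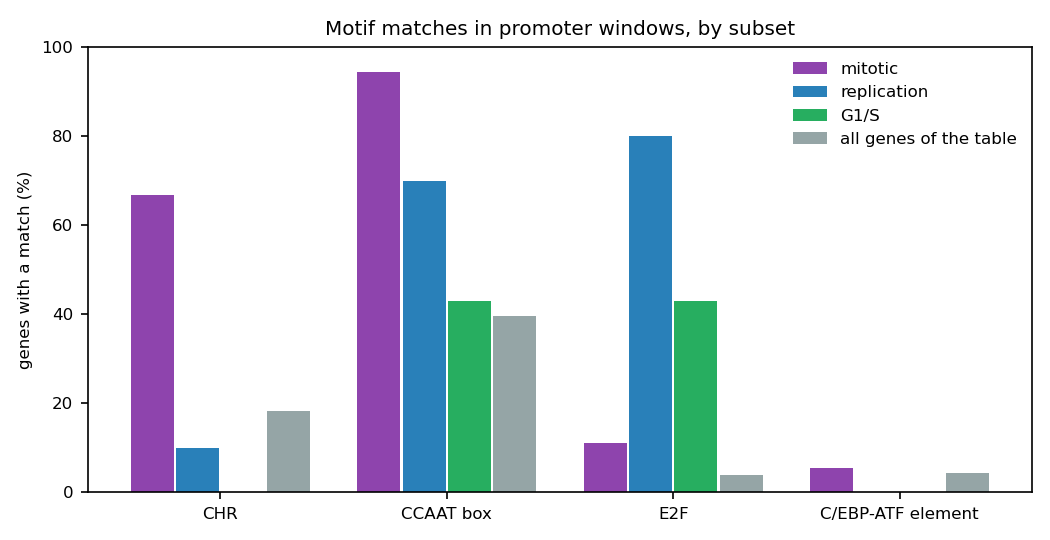
Share of genes with at least 1 match of each motif (vertical axis, percent; horizontal axis, motif) in the RefSeq promoter windows of the mitotic, replication and G1/S members and of all genes of the table. CHR letters stand in 66.7% of the mitotic windows and E2F letters in 80% of the replication windows, against 18.2% and 3.99% of all genes.

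The LX-2 libraries held 14551191 to 18776430 counts each, and those of HMLE 15956909 to 23243132. The library of LX-2 shCtrl Thapsigargin replicate 2 stood apart: 15840 genes were detected in it, where every other LX-2 library had 22912 to 24255, and log2 CPM correlated with its replicate at 0.873, where no other LX-2 pair was under 0.9865. Counts of called genes in LX-2 are therefore given from the 15 other libraries and again from all 16, where the coefficient of biological variation was 29.5% in place of 9.21%. The 2 files of HMLE shATF4 AA_Dep were identical and count as 1 library, so that group, like LX-2 shCtrl Thapsigargin with 15 libraries, has n = 1 and was assumed to vary like the others. Labels do not say that replicates were separate cultures, so p-values may measure technical spread alone. ATF4 itself was 110 to 205 CPM in LX-2 shATF4 libraries against 207 to 713 CPM in the 7 other shCtrl LX-2 libraries, and 111 to 166 CPM in HMLE shATF4 libraries against 311 to 946 CPM in HMLE shCtrl libraries. It was lower with shATF4 in all 8 conditions, by 0.91 to 2.78 on the log2 scale (edgeR adjusted p at most 3.03e-05). With all 16 LX-2 libraries the test was passed under Thapsigargin (edgeR adjusted p = 0.0174) but not in DMSO (0.428), under TGFbeta (0.127) or under AA_Dep (0.113). Marker levels are given over 15 libraries a line, without the discordant one. Of the stellate and mesenchymal markers, LX-2 had 657 to 15400 CPM of COL1A1, 917 to 2370 of VIM and 16.8 to 159 of PDGFRB. It also had 8.96 to 361 CPM of COL3A1, 3.37 to 49.4 of ACTA2 and 0.539 to 609 of COL1A2. In HMLE COL1A1 was 8.85 to 1320 CPM, VIM 3.68 to 878, PDGFRB 0.0638 to 28.2 and COL3A1 0 to 406. ACTA2 was 3.25 to 12.6 CPM in HMLE and COL1A2 0 to 2.48. So the ranges of the lines overlapped for each of these genes except VIM, and the highest COL3A1 level was in HMLE. DES and LRAT reached at most 0.259 CPM in LX-2 (LRAT was 1.45 to 40.5 CPM in HMLE). Of the epithelial markers, HMLE had at least 19.5 CPM of CDH1, 245 of KRT5, 29.5 of KRT14, 162 of KRT17 and 5.12 of EPCAM, and these 5 reached at most 1.87 CPM in LX-2. KRT8, KRT18 and ITGB4 were detected in every one of these LX-2 libraries, at 225 to 795, 105 to 686 and 2.14 to 15.1 CPM. The hepatocyte genes ALB, APOA1 and TTR reached at most 0.22 CPM in either line, but SERPINA1 was 3.92 to 10.9 CPM in LX-2 and 18.7 to 40.5 CPM in HMLE. Endothelial genes (PECAM1, VWF, CDH5 and KDR) reached at most 8.28 CPM and blood cell genes (PTPRC, CD68, LYZ and CD3E) at most 2.46 CPM.

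All 45 members passed the filter on low counts in each fit. Levels are CPM (counts scaled to a common library total) after TMM scaling, and called members had an adjusted p under 0.05 from edgeR's quasi-likelihood test over all genes tested. A treatment was compared with DMSO of the same line and hairpin in 12 comparisons. Without the discordant library every member was called at least once, from CDC25C in 1 comparison to AURKA, the mitotic spindle kinase, in all 12. Between 22.1% and 61.7% of all genes were called in each comparison. The share of all genes called at least once is not given here, so that count does not set the members apart. With the discordant library no member was called under TGFbeta with either hairpin, so AURKA was not called in all 12. These comparisons share DMSO libraries within a line and hairpin. Without the discordant library AURKA was called lower in every comparison. MCM2, CCNB1, CCNB2, PLK1, BUB1, CDC20 and RRM2 were then among the members never called higher. By the ratio of the highest to the lowest CPM, the widest range over the 15 LX-2 libraries belonged to CDK6 (6.25, from 41.4 to 259 CPM) and the narrowest to CDC25C (1.34, from 24 to 32.1 CPM). By the same ratio, in HMLE the widest belonged to CCND2 (12.9, from 5.08 to 65.7 CPM) and the narrowest to RRM1 (1.3, from 184 to 239 CPM).

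**Figure D2:**
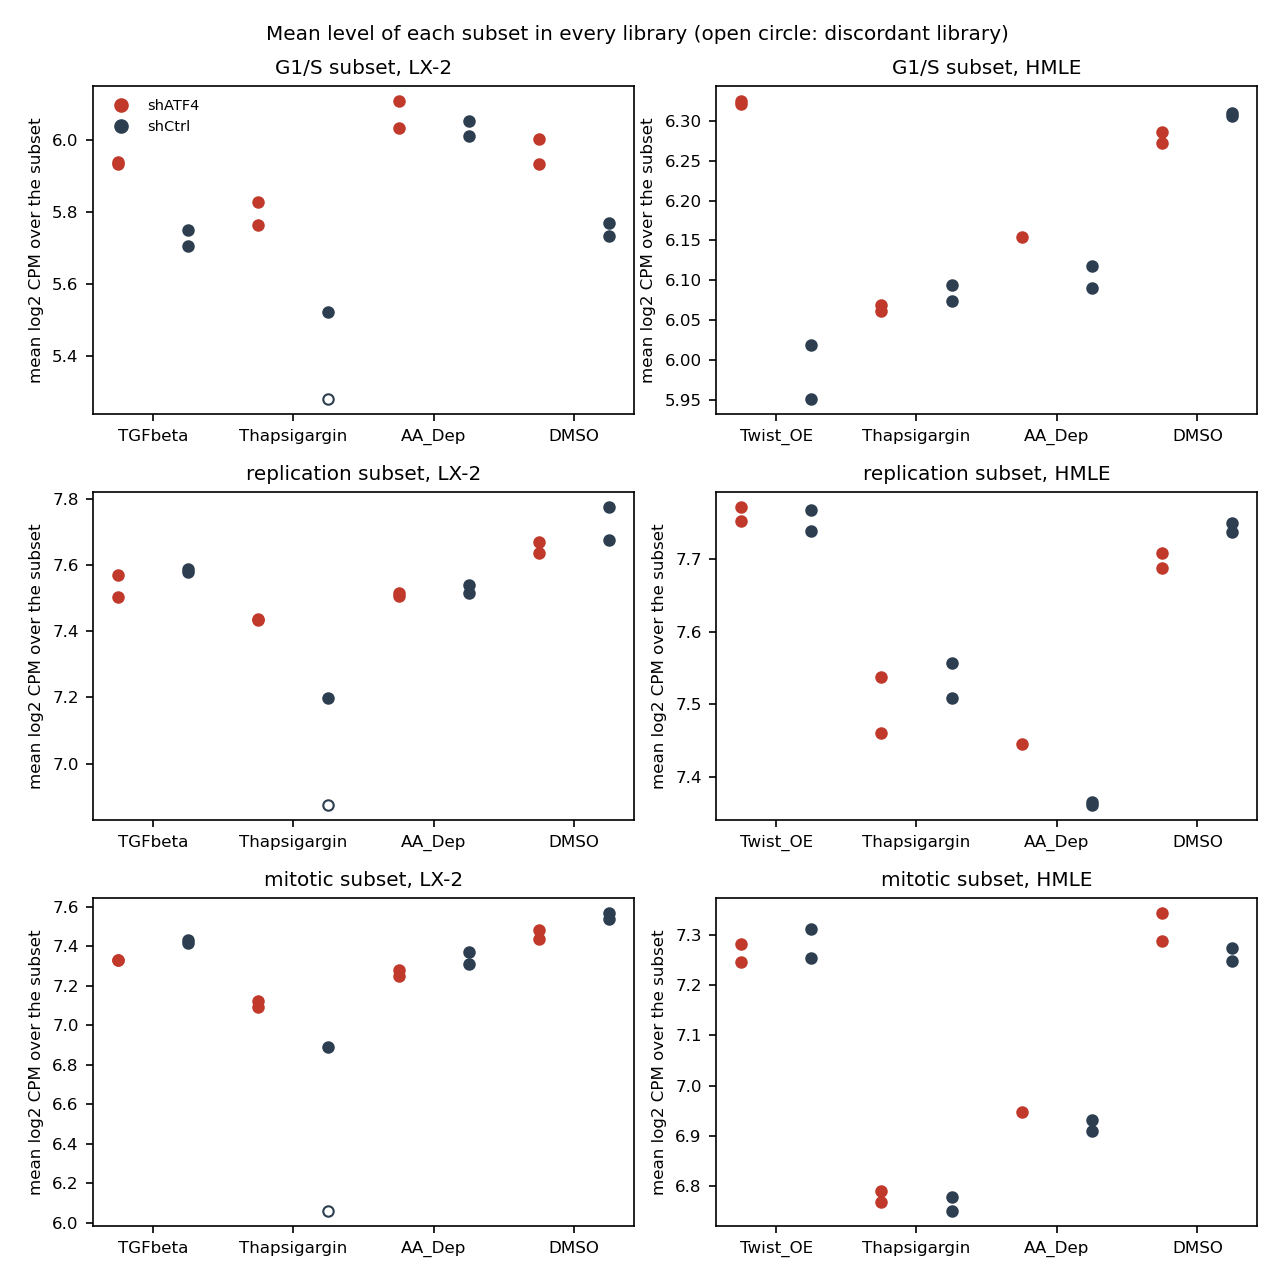
Mean log2 CPM over the members of each subset (vertical axis; rows G1/S, replication, mitotic, each on its own scale) in every library of LX-2 (left) and HMLE (right), by condition, shATF4 in red left of shCtrl in blue. The mitotic mean is lowest under Thapsigargin in each line, at 6.89 in LX-2 shCtrl replicate 1 and 6.75 and 6.78 in HMLE shCtrl, and the open circle is the discordant LX-2 library.

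Under Thapsigargin at least 13 of the 22 mitotic members and at least 7 of the 12 replication members fell in each line with each hairpin. In LX-2 shCtrl cells 29 of 45 members fell and 2 rose, where 20.4% of all genes fell and 20.2% rose (40.5% called in all). Mitotic members were called lower in 17 of 22 and higher in none (median -0.60 on the log2 scale, against 0.01 over all genes). Replication members fell in 9 of 12 and rose in 1 (median -0.73), while of the G1/S members 3 fell and 1 rose (median 0.05). In HMLE shCtrl cells 34 members fell and 1 rose, where 18.2% of all genes fell and 18.6% rose (36.8% called in all). There 21 of 22 mitotic members fell (median -0.48), 8 of 12 replication members fell and 1 rose (median -0.29), and 5 of 11 G1/S members fell (median -0.12). With shATF4, 24 members fell and 3 rose in LX-2 (19.2% and 17.8% of all genes, 37.1% called in all) and 33 fell and 1 rose in HMLE (15.7% and 16.8%). Less RNA of a mitotic gene in a culture may come from fewer cells in that phase or from less RNA per cell, and these cannot be told apart in bulk samples.

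KIF20A, the motor of cytokinesis, had 98.6 CPM in LX-2 shCtrl Thapsigargin replicate 1 and 4.28 in the discordant replicate 2, against 346 and 359.8 CPM in shCtrl DMSO. It fell by 1.81 ± 0.11 on the log2 scale (edgeR adjusted p = 2.37e-09; adjusted p = 0.0294 with all 16 libraries). CCNA2, the cyclin of S and G2 phases, had 78.7 and 26.7 CPM in the same 2 libraries, against 175 and 179.5 CPM in DMSO, and fell by 1.15 ± 0.11 (edgeR adjusted p = 7.59e-07). BUB1B, a kinase of the spindle checkpoint, had 61.9 and 8.55 CPM there, against 127 and 118 CPM in DMSO, and fell by 0.96 ± 0.11 (edgeR adjusted p = 4.64e-06). All 3 were below both DMSO libraries in each Thapsigargin library. AURKA in HMLE shCtrl cells had 88.9 and 92.9 CPM under Thapsigargin, against 184 and 183 CPM in DMSO, a fall of 1.02 ± 0.048 (edgeR adjusted p = 3.92e-12). With shATF4 it had 105 and 106 CPM, against 217 and 213 CPM, and the fall was 1.03 ± 0.047 (edgeR adjusted p = 4.34e-12). The groups did not overlap with either hairpin. MKI67, the proliferation marker Ki-67, fell by 0.82 ± 0.20 in HMLE shCtrl cells, with 243 and 184 CPM under Thapsigargin against 419 and 330.0 CPM in DMSO (edgeR adjusted p = 0.00296). In 6 of 7 HMLE groups with 2 libraries MKI67 was higher in replicate 1 than in replicate 2, as was CENPF, and CDK6 was so in 7 of 7. With the replicate number as a block in the fit, the fall of MKI67 in HMLE shCtrl cells still passed the test, at -0.82.

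In the replication subset CDC6 went the other way in all 4 comparisons. CDC6, the licensing factor that loads the helicase, had 289.6 CPM in LX-2 shCtrl Thapsigargin replicate 1 and 187 in replicate 2, against 108 and 121 CPM in DMSO, a rise of 1.37 ± 0.099 (edgeR adjusted p = 2.72e-08; adjusted p = 0.000987 with all 16 libraries). With shATF4 it had 229 and 239.9 CPM, against 141 and 149 CPM, a rise of 0.72 ± 0.084 (edgeR adjusted p = 6.01e-06). In HMLE it had 344 and 348 CPM with shCtrl, against 175 and 177 CPM (0.97 ± 0.045, edgeR adjusted p = 3.39e-12), and 248 and 252 CPM with shATF4, against 176 and 176 CPM (0.51 ± 0.045, edgeR adjusted p = 4.83e-08). Every Thapsigargin library lay above every DMSO library of its line and hairpin. PCNA had 178 and 178 CPM in the LX-2 shCtrl Thapsigargin libraries, against 405 and 444 CPM in DMSO, and fell by 1.23 ± 0.094 (edgeR adjusted p = 5.72e-08). RRM2, the small subunit of ribonucleotide reductase, had 102 and 118 CPM in LX-2 shATF4 cells under Thapsigargin, against 244 and 257 CPM in DMSO, a fall of 1.16 ± 0.11 (edgeR adjusted p = 4.09e-07). In HMLE the same gene had 169 and 177 CPM with shCtrl, against 186 and 180.1 CPM, and did not pass the test (-0.09, edgeR adjusted p = 0.249). MCM2, a helicase subunit, had 141 and 140.2 CPM in HMLE shCtrl Thapsigargin libraries, against 206 and 215 CPM in DMSO, and fell by 0.59 ± 0.056 (edgeR adjusted p = 9.49e-08).

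Among the G1/S members the lines differed. CDK6 had 41.4 and 22.8 CPM in LX-2 shCtrl Thapsigargin libraries, against 118 and 78.5 CPM in DMSO, and fell by 1.23 ± 0.26 (edgeR adjusted p = 0.0012). In HMLE shCtrl cells it had 194 and 163 CPM, against 180.1 and 158 CPM, with overlapping groups and a change of 0.07 that did not pass the test (edgeR adjusted p = 0.637). CCND1, cyclin D1, had 257 and 261 CPM in HMLE shCtrl Thapsigargin libraries, against 509 and 527 CPM in DMSO, and fell by 1.01 ± 0.045 (edgeR adjusted p = 2.23e-12). In LX-2 shCtrl cells it had 411 CPM in replicate 1 and 813 in the discordant replicate 2, against 381 and 348 CPM, and did not pass the test (0.20, edgeR adjusted p = 0.113). CDK4 rose by 0.66 ± 0.13 in LX-2 shCtrl cells, with 212 and 100.1 CPM against 129 and 143 CPM (edgeR adjusted p = 0.000607). The discordant library lay below both DMSO libraries for this gene, and with all 16 libraries the change was 0.27 (adjusted p = 0.4).

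Over the 4 comparisons of Thapsigargin with DMSO, which share no libraries, 15 of 45 members (33.3%) were lower in all, against 583 of 16173 genes (3.6%) tested in both lines. These were MCM2, MCM3, MCM5 and PCNA of the replication subset and CCNA2, CCNB1, CCNB2, TOP2A, BUB1, BUB1B, MAD2L1, AURKA, FOXM1, KIF20A and UBE2C of the mitotic subset, and no G1/S member. CDC6 alone was higher in all 4, where 664 genes (4.11%) were. With all 16 LX-2 libraries MAD2L1 was the only member lower in all 4 (115 genes, 0.726%) and CDC6 again the only member higher (152 genes, 0.959%). With those libraries 22 members fell and 4 rose in LX-2 shCtrl cells, where 15.1% of all genes fell and 19.3% rose. With shATF4 2 members fell and 1 rose, near the shares of all genes (4.37% and 3.49%). Of 65 further cell cycle genes 35 fell and 7 rose in HMLE shCtrl cells, where 18.2% of all genes fell and 18.6% rose.

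**Figure D3:**
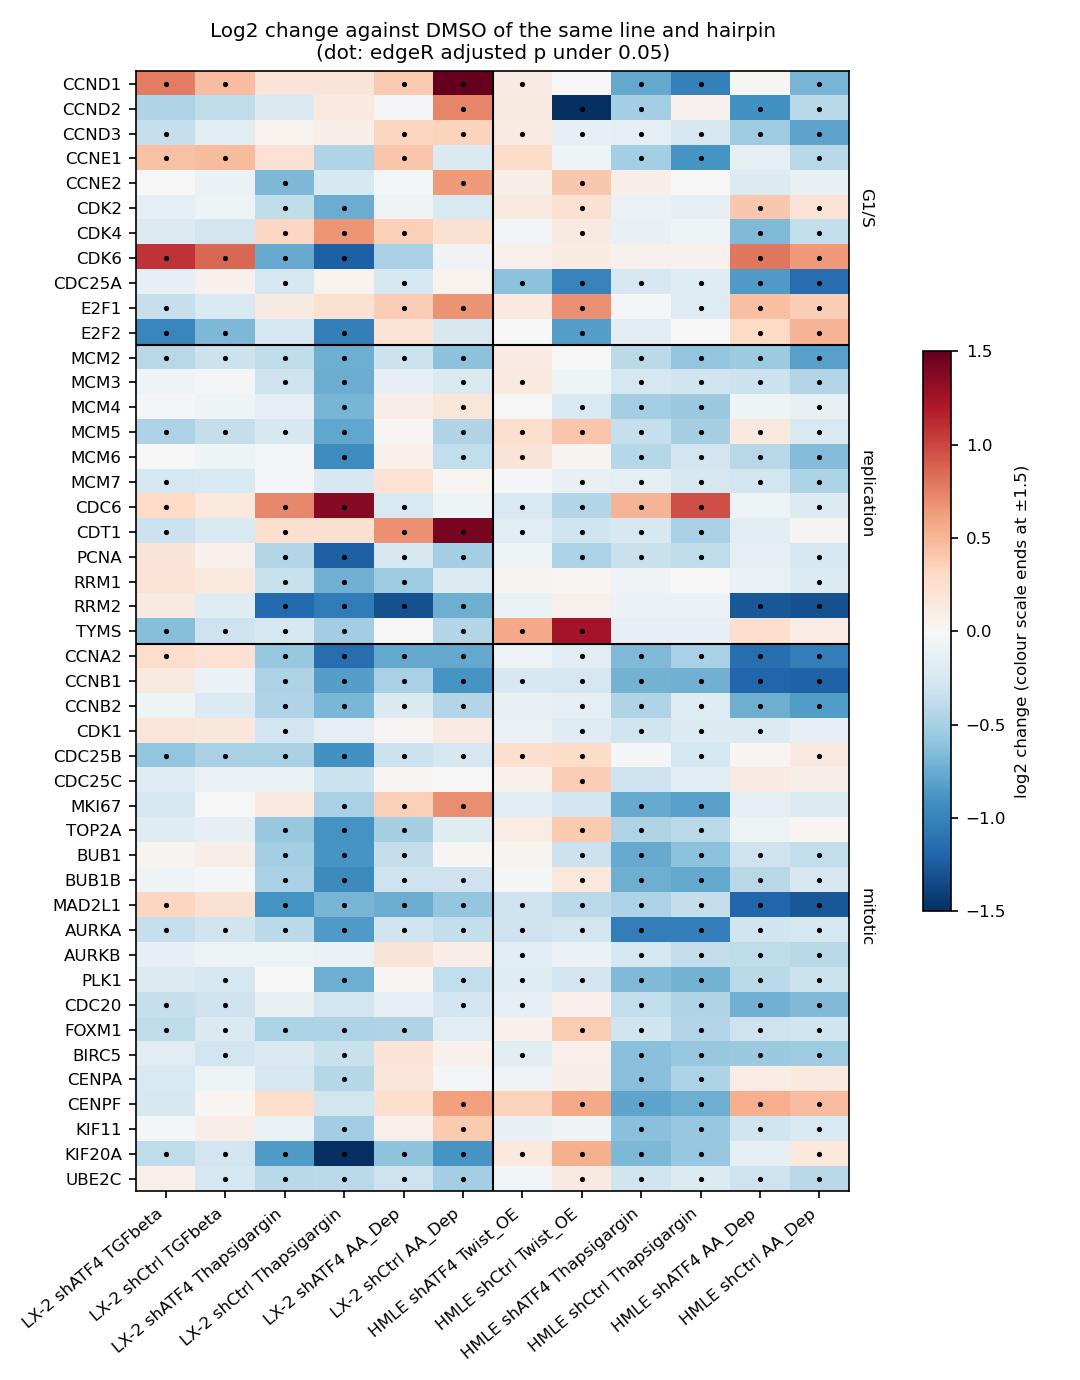
Log2 change of each member (rows, by subset) in each treatment against DMSO of the same line and hairpin (columns), blue for lower and red for higher, with the colour scale ending at 1.5 in each direction and a dot where the edgeR adjusted p was under 0.05. All 22 mitotic rows are below 0 in the Thapsigargin columns of LX-2 shCtrl and of HMLE with either hairpin, while in LX-2 shATF4 MKI67 (0.15), CENPF (0.27) and PLK1 (0.0028) are not, without passing the test, and CDC6 is red in all 4.

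Under AA_Dep the mitotic cyclins CCNA2, CCNB1 and CCNB2 and RRM2 fell in each line with each hairpin, while 5 of 11 G1/S members rose in LX-2 with shCtrl and 5 rose and 1 fell with shATF4. In the fit of all 16 LX-2 libraries 1 G1/S member rose with shCtrl and none with shATF4. In LX-2 shCtrl cells 18 members fell and 10 rose, where 22.7% of all genes fell and 22.8% rose (45.6% called in all). Of the G1/S subset 5 rose and none fell (median 0.22), of the replication subset 7 fell and 2 rose (median -0.29), and of the mitotic subset 11 fell and 3 rose (median -0.22). HMLE shCtrl cells had 30 members that fell and 7 that rose, where 32.6% of all genes fell and 29.1% rose (61.7% called in all). Of the G1/S subset 6 fell and 4 rose, of the replication subset 10 fell and none rose, and of the mitotic subset 14 fell and 3 rose (medians -0.37, -0.24 and -0.28). With shATF4, 18 members fell and 7 rose in LX-2 (22.1% and 20.3% of all genes, 42.4% called in all), and 24 fell and 6 rose in HMLE (28.4% and 25.7%). With all 16 LX-2 libraries 4 fell and 2 rose with shCtrl, where 6.95% of all genes fell and 6.09% rose. With shATF4 2 fell and none rose in that fit, where 4.75% of all genes fell and 3.77% rose.

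CCND1 had 984 and 1117 CPM in LX-2 shCtrl AA_Dep libraries, against 381 and 348 CPM in DMSO, and rose by 1.56 ± 0.080 (edgeR adjusted p = 3.96e-10; adjusted p = 0.00574 with all 16 libraries). With shATF4 the LX-2 level was 678 and 693 CPM, against 541 and 505 CPM, a rise of 0.40 ± 0.078 (edgeR adjusted p = 0.000744; adjusted p = 0.498 with 16). In HMLE shCtrl cells it was 317 and 321 CPM, against 509 and 527 CPM, a fall of 0.70 ± 0.045 (edgeR adjusted p = 1.44e-10). So the AA_Dep libraries were above both DMSO libraries in LX-2 and below both in HMLE shCtrl cells. CDC25A, a phosphatase that activates CDK2, had 61.0 and 63.6 CPM in HMLE shCtrl AA_Dep libraries, against 143 and 132 CPM in DMSO, and fell by 1.14 ± 0.056 (edgeR adjusted p = 3.04e-12). CDK6 was 314 CPM in the HMLE shATF4 AA_Dep library, against 189.7 and 176 CPM in DMSO, a rise of 0.79 ± 0.11 (edgeR adjusted p = 7.59e-06). E2F1, named for this overlap after its values were seen, rose in all 4 comparisons, by 0.68 and 0.37 in LX-2 with shCtrl and shATF4 and by 0.37 and 0.45 in HMLE with the same hairpins, against 797 of 16173 genes (4.93%) that did. No member was higher in all 4 with all 16 LX-2 libraries (170 genes, 1.07%).

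Of the replication members, RRM2 had 87.5 and 113 CPM in LX-2 shCtrl AA_Dep libraries, against 169 and 171 CPM in DMSO, and fell by 0.73 ± 0.11 (edgeR adjusted p = 3.53e-05). In LX-2 shATF4 cells it had 102 and 99.1 CPM, against 244 and 257 CPM, a fall of 1.31 ± 0.11 (edgeR adjusted p = 1.23e-07). In HMLE shCtrl cells it had 73.5 and 73.6 CPM, against 186 and 180.1 CPM, a fall of 1.31 ± 0.060 (edgeR adjusted p = 1.12e-12). No AA_Dep library reached the DMSO libraries of its line and hairpin. CDT1, the partner of CDC6 in licensing, went up in LX-2, to 218 and 187 CPM with shCtrl against 74.5 and 79.5 CPM in DMSO (1.43 ± 0.085, edgeR adjusted p = 2.23e-09; adjusted p = 0.0795 with 16 libraries). With shCtrl in HMLE, CDT1 had 88.3 and 84.6 CPM, against 84.4 and 83.8 CPM, and did not pass the test (edgeR adjusted p = 0.561).

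Of the mitotic members, CCNB1, the cyclin that drives CDK1 into mitosis, had 237 and 243 CPM in LX-2 shCtrl AA_Dep libraries, against 432 and 475 CPM in DMSO, and fell by 0.89 ± 0.066 (edgeR adjusted p = 2.88e-08). In HMLE shCtrl cells it had 203 and 193 CPM, against 459 and 457 CPM, and fell by 1.21 ± 0.047 (edgeR adjusted p = 1.4e-13). MAD2L1, a spindle checkpoint protein, had 66.6 and 67.9 CPM in HMLE shCtrl AA_Dep libraries, against 163 and 162 CPM in DMSO, and fell by 1.27 ± 0.054 (edgeR adjusted p = 4.28e-13). The groups did not overlap for these genes. MKI67 and CENPF, in contrast, rose in LX-2 shCtrl cells, by 0.70 and 0.62, without overlap. MKI67 had 418 and 517 CPM under AA_Dep, against 328 and 260 CPM in DMSO. CENPF had 224 and 332 CPM under AA_Dep, against 211 and 157 CPM in DMSO. These 2 genes did not both pass the test with all 16 libraries. Over the 4 comparisons 9 members (20%) were lower in all, against 1105 genes (6.83%). They were MCM2 and RRM2 of the replication subset and CCNA2, CCNB1, CCNB2, BUB1B, MAD2L1, AURKA and UBE2C of the mitotic subset. With all 16 LX-2 libraries RRM2 and CCNB1 remained of these (186 genes, 1.17%). Without the discordant library 21 of 65 further cell cycle genes fell and 12 rose in LX-2 shCtrl cells, where 22.7% and 22.8% of all genes did. In HMLE shCtrl cells 36 fell and 12 rose, where 32.6% and 29.1% of all genes did.

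**Figure D4:**
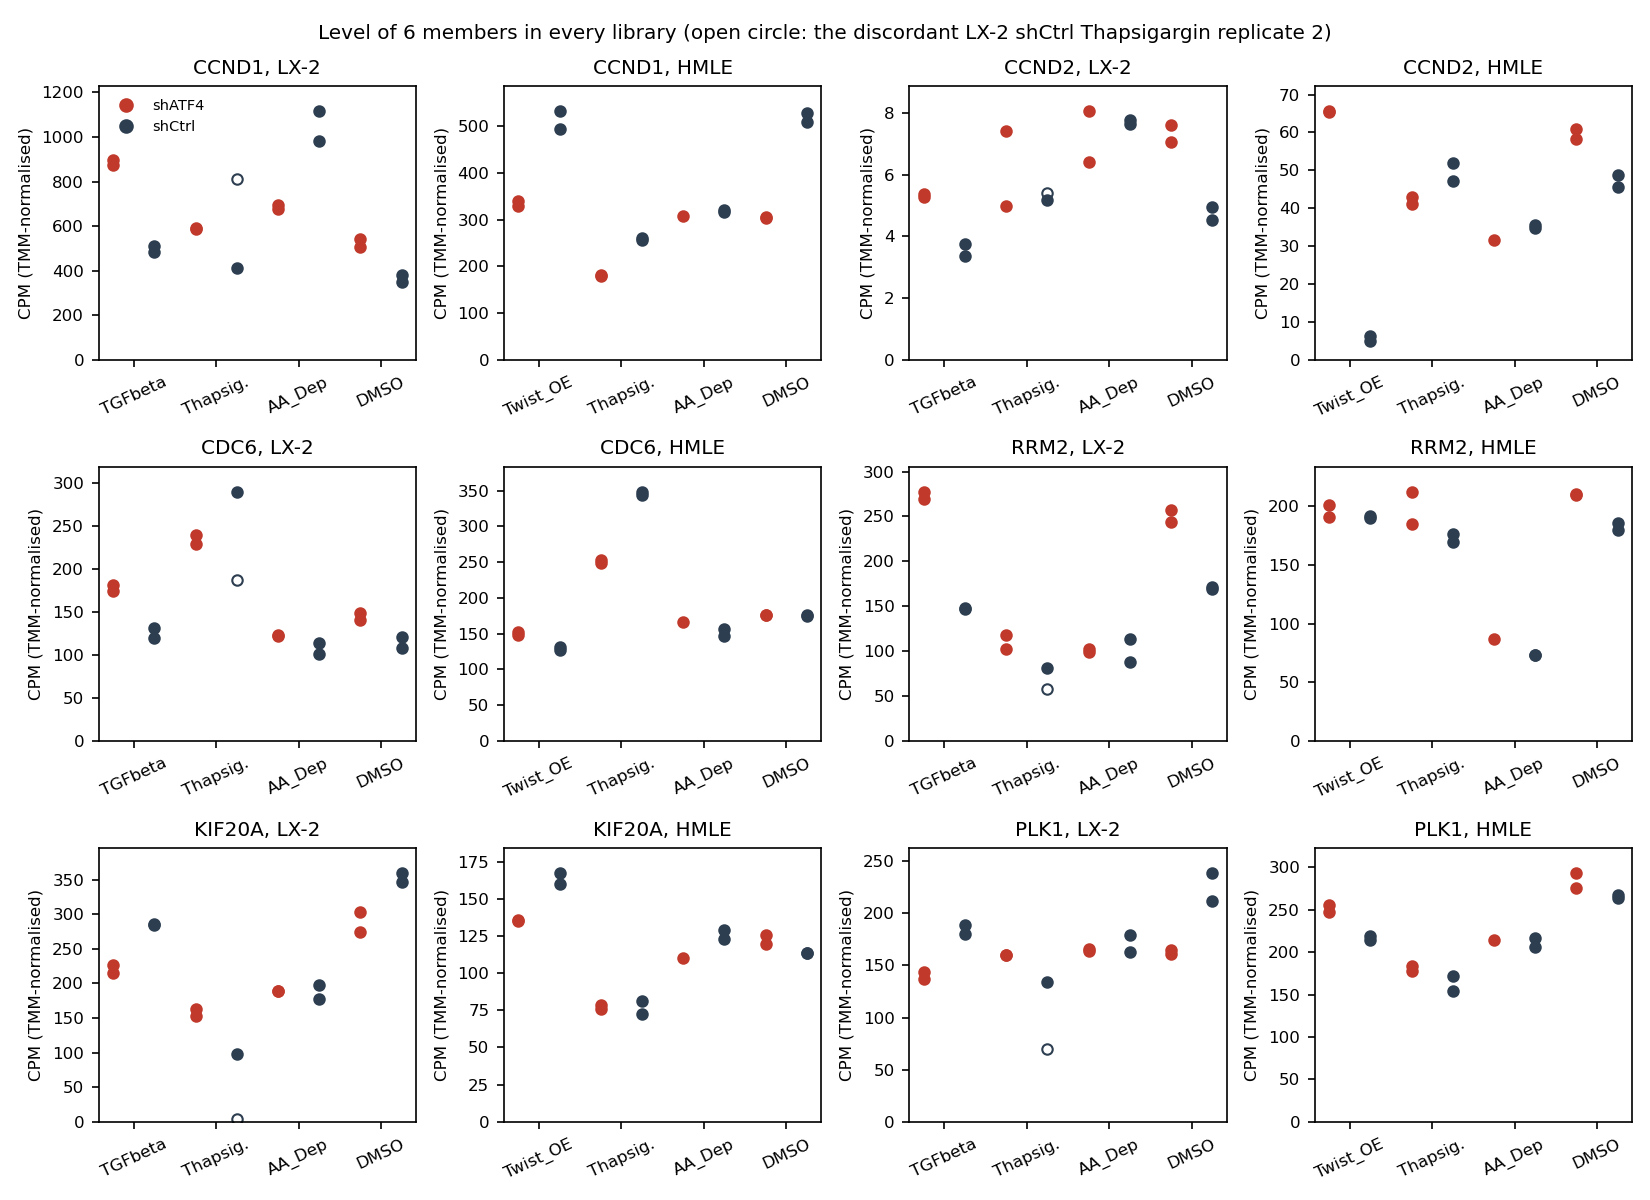
CPM after TMM scaling (vertical axes, from 0) of CCND1, CCND2, CDC6, RRM2, KIF20A and PLK1 in every library, by condition, with shATF4 in red left of shCtrl in blue and each line in its own panel. CDC6 is high under Thapsigargin in each line, RRM2 is low under AA_Dep in each line, and CCND2 is at 6.19 and 5.08 CPM in the HMLE shCtrl Twist_OE libraries.

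Under TGFbeta the members called in LX-2 shCtrl cells were mostly lower mitotic and replication genes. With shCtrl 12 of 45 members fell and 3 rose, where 11% of all genes fell and 11.1% rose (22.1% called in all). The lower ones were 8 mitotic, 3 replication and 1 G1/S member, and all 3 that rose were of the G1/S subset. With shATF4 13 fell and 6 rose, where 14.1% of all genes fell and 13.5% rose. Those that rose with shATF4 included CCNA2 and MAD2L1 of the mitotic subset and CDC6 of the replication subset. Their mean levels were 162.8, 149.8 and 178.3 CPM, against 135.5, 119.8 and 144.8 CPM in shATF4 DMSO. With all 16 libraries no member was called with either hairpin, where 3.15% of all genes were with shCtrl and 2.42% with shATF4. CDK6 had 189 and 165 CPM in shCtrl TGFbeta libraries, against 118 and 78.5 CPM in shCtrl DMSO, and rose by 0.87 ± 0.19 (edgeR adjusted p = 0.00412). With shATF4 it had 259 and 244 CPM, against 119.7 and 118 CPM, a rise of 1.09 ± 0.19 (edgeR adjusted p = 0.000636). E2F2 had 25.1 and 24.4 CPM with shCtrl, against 36.7 and 43.9 CPM, and fell by 0.68 ± 0.10 (edgeR adjusted p = 0.000191). With shATF4 E2F2 had 17.4 and 17.2 CPM, against 33.0 and 35.7 CPM, and fell by 0.98 ± 0.11 (edgeR adjusted p = 7.03e-06). The TGFbeta libraries stood apart from the DMSO libraries for each gene with each hairpin.

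CDC25B, a phosphatase that activates CDK1, had 262 and 273 CPM in shCtrl TGFbeta libraries, against 355 and 411 CPM in DMSO, and fell by 0.49 ± 0.073 (edgeR adjusted p = 0.000135). AURKA and CDC20 fell by 0.30 and 0.31 with shCtrl. MCM5 and TYMS of the replication subset fell by 0.36 and 0.31 with shCtrl and by 0.47 and 0.64 with shATF4. KIF20A fell by 0.38 with shATF4. PCNA was 433 and 434 CPM in shCtrl TGFbeta libraries, against 405 and 444 CPM in DMSO, with overlapping values, and did not pass the test. Without the discordant library 11 of 65 further genes fell and 5 rose with shCtrl, where 11% and 11.1% of all genes did. Among them the CDK inhibitor CDKN2B rose to 86.3 and 85.4 CPM, against 12.2 and 15.2 CPM in DMSO (2.68 ± 0.12, edgeR adjusted p = 1.09e-10).

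Twist_OE in HMLE changed members in each direction. With shCtrl 17 of 45 fell and 14 rose, a share of called members near that of all genes (57.2%, of which 28.9% fell and 28.3% rose). Of the mitotic subset 8 fell and 8 rose, of the replication subset 5 fell and 2 rose, and of the G1/S subset 4 fell and 4 rose. With shATF4 10 fell and 8 rose, where 35.3% of all genes were called. CCND2, cyclin D2, had 6.19 and 5.08 CPM in shCtrl Twist_OE libraries, against 45.7 and 48.7 CPM in shCtrl DMSO, and fell by 3.07 ± 0.093 (edgeR adjusted p = 1.01e-15). With shATF4 it had 65.7 and 65.4 CPM, against 60.8 and 58.3 CPM, and did not pass the test (0.14, edgeR adjusted p = 0.127). So the shCtrl Twist_OE libraries were far below every other HMLE library. CCND2-AS1, an antisense gene that overlaps CCND2, did not pass the test in the shCtrl comparison (0.05, edgeR adjusted p = 0.97), and the sources used here do not say whether counting used strand.

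CDC25A had 67.0 and 70.2 CPM in shCtrl Twist_OE libraries, against 143 and 132 CPM in DMSO, and fell by 0.998 ± 0.055 (edgeR adjusted p = 8.09e-12). With shATF4 it had 117 and 111 CPM, against 175 and 174 CPM, and fell by 0.62 ± 0.053 (edgeR adjusted p = 2.67e-08). TYMS had 86.7 and 90.8 CPM with shCtrl, against 37.4 and 37.7 CPM, and rose by 1.25 ± 0.11 (edgeR adjusted p = 8.54e-09). TYMS overlaps ENOSF1, so some of its reads may be shared. ENOSF1 itself did not pass the test in the shCtrl comparison (0.05, edgeR adjusted p = 0.707). PCNA and CDC6 fell by 0.47 and 0.44 with shCtrl. KIF20A had 167 and 159.7 CPM with shCtrl, against 113 and 114 CPM, and rose by 0.53 ± 0.054 (edgeR adjusted p = 8.29e-08). With shATF4 MAD2L1 fell by 0.31 and AURKA by 0.31. Of 65 further genes 19 fell and 19 rose with shCtrl, where 28.9% and 28.3% of all genes did. With shATF4 12 of them fell and 7 rose, where 17.2% and 18.2% of all genes did.

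In DMSO members were called between shATF4 and shCtrl in each line, in LX-2 only without the discordant library. In LX-2 8 of 45 members were higher and 6 lower with shATF4, where 6.28% of all genes were higher and 5.3% lower. Of the G1/S subset 4 were higher and none lower. With all 16 libraries no member was called, where only 0.242% of all genes were. CCNE2, cyclin E2, had 16.9 and 14.7 CPM in shATF4 DMSO libraries, against 10.2 and 8.5 CPM in shCtrl DMSO, and rose by 0.77 ± 0.16 (edgeR adjusted p = 0.00598). CDC25A had 69.8 and 67.8 CPM with shATF4, against 40.7 and 46.1 CPM with shCtrl, and rose by 0.69 ± 0.087 (edgeR adjusted p = 9.24e-05). RRM2 had 244 and 257 CPM, against 169 and 171 CPM, and rose by 0.58 ± 0.10 (edgeR adjusted p = 0.00182). MCM6 had 72.7 and 73.9 CPM, against 101 and 105 CPM, and fell by 0.47 ± 0.092 (edgeR adjusted p = 0.00347). PLK1 had 160.4 and 164 CPM, against 212 and 239 CPM, and fell by 0.45 ± 0.076 (edgeR adjusted p = 0.00121). The hairpin groups did not overlap for these 5 genes.

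In HMLE in DMSO 6 members were higher and 5 lower with shATF4, where 6.08% of all genes were higher and 6.72% lower. CCND1 had 306 and 304 CPM with shATF4, against 509 and 527 CPM with shCtrl, and fell by 0.77 ± 0.045 (edgeR adjusted p = 1.32e-09). In LX-2 the direction was the opposite: 541 and 505 CPM with shATF4, against 381 and 348 CPM with shCtrl (0.54, edgeR adjusted p = 0.000332; adjusted p = 0.931 with 16 libraries). Whether the hairpin effect differed between the lines was not tested. CDC25A had 175 and 174 CPM with shATF4, against 143 and 132 CPM with shCtrl in HMLE, and rose by 0.34 ± 0.052 (edgeR adjusted p = 0.000188). MAD2L1 rose by 0.32 and MCM5 fell by 0.24.

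Under TGFbeta 7 members were higher and 10 lower in LX-2 with shATF4 than with shCtrl, where 10.9% of all genes were higher and 10.7% lower. RRM2 had 269 and 277 CPM with shATF4, against 148 and 146 CPM with shCtrl, and rose by 0.89 ± 0.10 (edgeR adjusted p = 1.99e-05). It was the only member called with all 16 libraries (adjusted p = 0.0334), where 1.29% of all genes were called. CCND1 had 898 and 876 CPM with shATF4, against 509 and 482 CPM, and rose by 0.84 ± 0.079 (edgeR adjusted p = 1.72e-06). TYMS and PLK1 fell by 0.54 and 0.40. For the response to TGFbeta no difference between hairpins passed edgeR's quasi-likelihood test (0 members called, where 0.987% of all genes were, 4 members at an unadjusted p under 0.05, and 0 by DESeq2). CDKN2B, outside the list, had 16.1 and 15.9 CPM with shATF4 under TGFbeta, against 86.3 and 85.4 CPM with shCtrl (-2.42, edgeR adjusted p = 1.18e-09).

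Under Twist_OE 14 members were higher and 16 lower in HMLE with shATF4, where 23.3% of all genes were higher and 23.9% lower. CCND2 showed the largest difference, 3.54 ± 0.091 (edgeR adjusted p = 1.69e-16), from the levels given above. CDC25A had 117 and 111 CPM with shATF4, against 67.0 and 70.2 CPM with shCtrl, and rose by 0.72 ± 0.055 (edgeR adjusted p = 1.87e-09). TYMS had 47.9 and 57.7 CPM with shATF4, against 86.7 and 90.8 CPM, and fell by 0.75 ± 0.11 (edgeR adjusted p = 7.15e-06). BUB1 had 182 and 181 CPM with shATF4, against 135 and 132 CPM, and rose by 0.44 ± 0.054 (edgeR adjusted p = 1.41e-06). The response to Twist_OE differed between hairpins for 16 members, 9 higher and 7 lower with shATF4, where 29.7% of all genes did. For CCND2 the response was higher by 3.20 ± 0.12 (edgeR adjusted p = 6.55e-14) with shATF4, for E2F2 by 0.83, and for TYMS it was lower by 0.68.

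**Figure D5:**
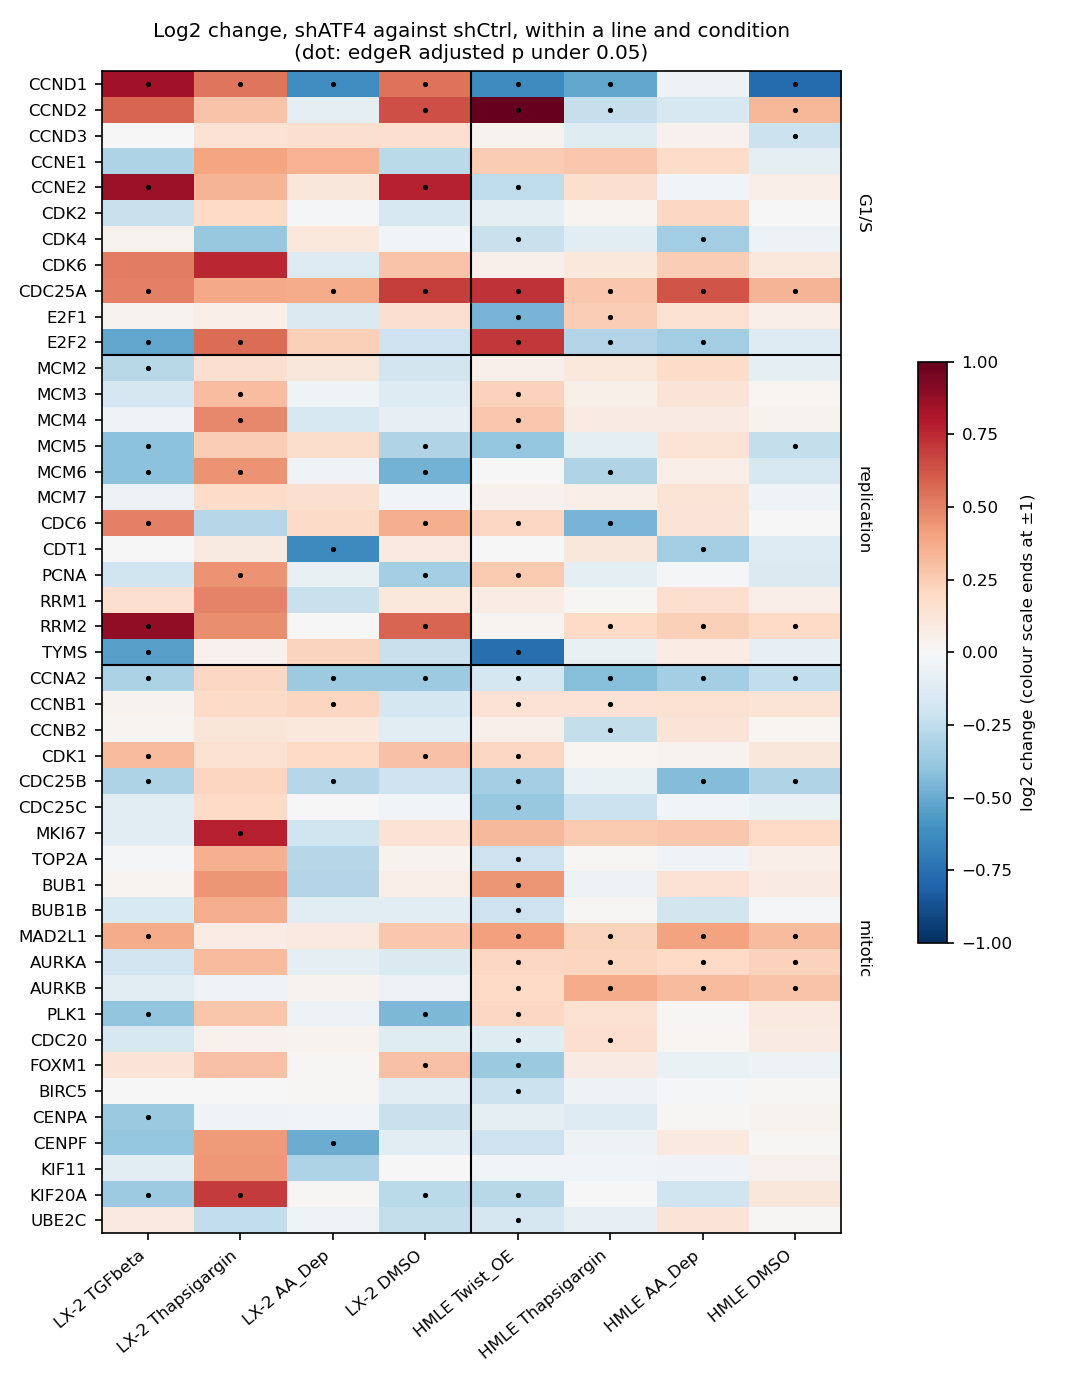
Log2 change of each member (rows, by subset) with shATF4 against shCtrl within a line and condition (columns), with the colour scale ending at 1 in each direction and a dot where the edgeR adjusted p was under 0.05. CDC25A is red in all 8 columns and dotted in all but LX-2 Thapsigargin (not called in LX-2 with all 16 libraries), and CCND1 is red in LX-2 DMSO and TGFbeta but blue in HMLE DMSO.

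Under Thapsigargin in LX-2, 8 members were higher and none lower with shATF4 than with shCtrl, where 3.11% of all genes were higher and 2.09% lower (5.2% in all). Here shCtrl has a single library, and with all 16 libraries no member was called, where only 0.231% of all genes were. MKI67 had 350.2 and 349 CPM with shATF4, against 207 CPM in shCtrl replicate 1 and 130.1 in the discordant replicate 2, and rose by 0.77 ± 0.14 (edgeR adjusted p = 0.00425). KIF20A had 153 and 164 CPM, against 98.6 and 4.28 CPM, and rose by 0.70 ± 0.10 (edgeR adjusted p = 0.000618). For E2F2 and CCND1 the sign turned with the discordant library, at 0.56 and 0.54 without it and -0.37 and -0.17 with it. The response to Thapsigargin was higher with shATF4 for 13 members and lower for CDC6 alone, where 3.67% of all genes were higher and 2.46% lower (6.13% in all). For MCM6 it was higher by 0.92 ± 0.15 (edgeR adjusted p = 0.00134) and for PLK1 by 0.73, and for CDC6 it was lower by 0.65 ± 0.13 (edgeR adjusted p = 0.0069). With all 16 libraries no member passed this test, where only 0.27% of all genes did. Both counts also depended on which shCtrl Thapsigargin library was kept, as described below.

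In HMLE under Thapsigargin 8 members were higher and 7 lower with shATF4, where 12.3% and 11.9% of all genes were. CDC6 had 248 and 252 CPM with shATF4, against 344 and 348 CPM with shCtrl, and fell by 0.47 ± 0.044 (edgeR adjusted p = 2.63e-07). CCNA2 had 103 and 109.7 CPM, against 143 and 142 CPM, and fell by 0.42 ± 0.050 (edgeR adjusted p = 3.99e-06). AURKB, the kinase of the chromosomal passenger complex, had 100.1 and 99.99 CPM, against 79.2 and 75.5 CPM, and rose by 0.37 ± 0.061 (edgeR adjusted p = 0.000147). The response differed between hairpins for 3 members, where 4.56% of all genes did: it was lower with shATF4 for CCND2 (-0.57) and CDC6 (-0.46 ± 0.063, edgeR adjusted p = 0.000129) and higher for CCND1 (0.24). No mitotic member was among them. The LX-2 difference for CDC6 was, with all 16 libraries, -0.44 (adjusted p = 0.364).

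Under AA_Dep 2 members were higher and 5 lower in LX-2 with shATF4, where 3.87% of all genes were higher and 6.04% lower (9.91% in all). No member was called there with all 16 libraries, where only 0.09% of all genes were. CDT1 had 128 and 132 CPM with shATF4, against 218 and 187 CPM with shCtrl, and fell by 0.64 ± 0.083 (edgeR adjusted p = 0.000199). CCND1 had 678 and 693 CPM, against 984 and 1117 CPM, and fell by 0.62 ± 0.078 (edgeR adjusted p = 0.000145). The response to AA_Dep differed between hairpins for 8 members, 5 higher and 3 lower with shATF4, where 10.6% of all genes did (3.91% higher and 6.65% lower). It was lower for CCND1 by 1.16 ± 0.11 (edgeR adjusted p = 8.92e-06) and for CDT1 by 0.74 ± 0.12 (edgeR adjusted p = 0.00117). For this response no member passed with all 16 libraries, where only 0.0675% of all genes did. Both LX-2 counts also depended on which AA_Dep libraries were kept, as described below. In HMLE 5 members were higher and 5 lower with shATF4 under AA_Dep, where 9.77% and 7.09% of all genes were, against a single shATF4 library. CDC25A had 96.3 CPM with shATF4, against 61.0 and 63.6 CPM with shCtrl, and rose by 0.63 ± 0.069 (edgeR adjusted p = 2.09e-06). The response differed for 3 members, where 5.09% of all genes did, and for CCND1 it was higher with shATF4 by 0.72 ± 0.071 (edgeR adjusted p = 3.03e-06). CCND1 was 308 CPM in that library, against 306 and 304 CPM in shATF4 DMSO, so that the fall seen with shCtrl was not detected (0.02, edgeR adjusted p = 0.786).

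In DMSO, LX-2 shCtrl cells had 16 members higher and 18 lower than HMLE shCtrl cells, where 35.9% of all genes were higher and 34.5% lower. These counts were 8 and 11 when the discordant library was included, where 26.8% of all genes were higher and 24.8% lower. Values across the lines are relative to each library's total. CCND2 had 4.95 and 4.53 CPM in LX-2, against 45.7 and 48.7 CPM in HMLE (-3.31 ± 0.13, edgeR adjusted p = 6.75e-18). E2F1 had 193 and 223 CPM in LX-2, against 52.1 and 54.0 CPM in HMLE (1.97 ± 0.083, edgeR adjusted p = 2.11e-17). CDC25A had 40.7 and 46.1 CPM, against 143 and 132 CPM (-1.67 ± 0.072, edgeR adjusted p = 3.94e-17). KIF20A had 346 and 359.8 CPM, against 113 and 114 CPM (1.64 ± 0.071, edgeR adjusted p = 3.7e-17). TYMS had 100.3 and 111 CPM, against 37.4 and 37.7 CPM (1.49 ± 0.12, edgeR adjusted p = 7.58e-12), and MCM6 had 101 and 105 CPM, against 209 and 214 CPM (-1.03 ± 0.078, edgeR adjusted p = 4.79e-12). The lines did not overlap for these 6 genes.

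The response of shCtrl cells to Thapsigargin differed between the lines for 20 members, 5 higher and 15 lower in LX-2, where 27.7% of all genes did. It was lower in LX-2 for CDK6 (-1.31 ± 0.27, edgeR adjusted p = 0.000611), KIF20A (-1.26 ± 0.11, edgeR adjusted p = 2.65e-09) and RRM2 (-0.98 ± 0.14, edgeR adjusted p = 7.05e-06), and higher for CCND1 (1.19 ± 0.10, edgeR adjusted p = 1.15e-09). With all libraries it differed for 15 members, 6 higher and 9 lower, where 11.3% of all genes were higher and 10.3% lower. The response to AA_Dep differed for 28 members, 20 higher and 8 lower in LX-2, where 40.3% of all genes did. It was higher in LX-2 for CCND1 (2.23 ± 0.093, edgeR adjusted p = 8.47e-16; adjusted p = 8.1e-06 with all libraries), CDC25A (1.16 ± 0.10, edgeR adjusted p = 9.56e-10) and CDT1 (1.36 ± 0.10, edgeR adjusted p = 8.14e-11), and lower for KIF20A (-1.07 ± 0.099, edgeR adjusted p = 2.36e-09). With all libraries 4 members passed this test, all higher in LX-2, where 14.5% of all genes passed (6.7% higher and 7.76% lower). Treatment doses and durations are not given for either line, so a difference between lines cannot be told apart from one in exposure.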

How the data were processed

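Per the labels, Qiagen RNeasy columns gave the RNA, and a SMARTer kit the libraries. The authors deposited whole-number counts per Ensembl gene for each sample. Per the submitters' processing notes the tools included STAR, HOMER, featureCounts and DESeq, with the builds hg19 and hg38, without roles, and strandedness is not given in the sources used here. Counts were fitted per line, and over both lines for contrasts between lines, with edgeR 4.0.16 in R 4.3.3 (filterByExpr, TMM, quasi-likelihood test, Benjamini-Hochberg adjustment over all genes tested, threshold 0.05), and the procedure was checked on simulated counts. Levels are TMM-scaled CPM. LX-2 shCtrl Thapsigargin replicate 2 was left out of the LX-2 fit because earlier results of these data had shown it to stand apart, and results with it are given beside. Named members are, per comparison and subset, up to 3 called members with the largest change, at least 5 CPM and groups that did not overlap, plus a few standard genes. The members, lists and rule were chosen with earlier results of these data known. Samples that shared a replicate number did not deviate together over all genes kept, and the main fit had no replicate block. DESeq2 1.42.0, other scaling, no filter, a replicate block, fits of only the groups compared and leaving out each library were the alternatives. ChIP samples of the series were not analysed here.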

Additional observations from a re-analysis of the deposited data

Results flagged for a closer look

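The response to a treatment differed between shATF4 and shCtrl, or between LX-2 and HMLE, by edgeR's test of the difference itself. With the discordant library included, 0.27% of all genes were called for Thapsigargin and 0.0675% for AA_Dep between hairpins in LX-2. Between lines these shares were 21.6% and 14.5%. Between hairpins in LX-2, 14 of 45 members were called for Thapsigargin (6.13% of all genes) and 8 for AA_Dep (10.6%), and both counts were 0 with all 16 libraries. Between hairpins in HMLE, 16 were called for Twist_OE (29.7%), 3 for Thapsigargin (4.56%) and 3 for AA_Dep (5.09%), shares of the members near those of all genes. Between lines in shCtrl cells, 20 differed for Thapsigargin (27.7%) and 28 for AA_Dep (40.3%), and with all libraries 15 and 4 did.

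Differences of responses are shATF4 minus shCtrl on the log2 scale. In LX-2 under Thapsigargin they were 0.77 for E2F2, 0.97 for KIF20A and 0.92 for MCM6, and the value of E2F2 was -0.15 with all 16 libraries. In LX-2 under AA_Dep they were -1.16 for CCND1, 0.395 for CCNB1 and -0.74 for CDT1. In HMLE they were 3.20 for CCND2, -0.68 for TYMS and -0.39 for KIF20A under Twist_OE. Under Thapsigargin they were -0.57 for CCND2 and -0.46 for CDC6, and under AA_Dep 0.72 for CCND1 and 0.37 for MCM5.

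Differences between lines are LX-2 minus HMLE in shCtrl cells. Under Thapsigargin they were -1.31 for CDK6, -1.26 for KIF20A and -0.98 for RRM2. Under AA_Dep they were 2.23 for CCND1, 1.36 for CDT1 and -1.07 for KIF20A.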

How the results depend on the processing

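Counts of called members depend most on the discordant LX-2 library. With all 16 LX-2 libraries the counts were 0 for TGFbeta with either hairpin, 6 for AA_Dep with shCtrl and 2 with shATF4, and 3 for Thapsigargin with shATF4. Between hairpins in LX-2 they were 0 in DMSO, 1 under TGFbeta, 0 under Thapsigargin and 0 under AA_Dep, and 0 for the responses to Thapsigargin and AA_Dep. Between lines they were 19 in DMSO and 4 for the AA_Dep response. The shares of all genes called with the discordant library are given with each of these comparisons above. Among changes of genes named by the fixed rule in LX-2 or between lines, 53 kept their result with that library. A further 119 no longer passed the test and 5 turned sign. Fits of only the groups compared gave 17 for LX-2 shCtrl AA_Dep, 32 for shATF4 TGFbeta, 29 between hairpins under TGFbeta, 20 under Thapsigargin and 0 under AA_Dep, 1 and 2 for the LX-2 responses to TGFbeta and AA_Dep between hairpins, 5 for the HMLE response to AA_Dep and 18 for that response between lines. For the LX-2 hairpins under Thapsigargin the count was 15 with no filter and 16 with DESeq2. For the HMLE AA_Dep response it was 5 with DESeq2 size factors, 5 with no filter and 5 with a replicate block, which also gave 5 for the HMLE Thapsigargin response. The block left 27 of 29 counts within 1.5 times. Shares of all genes called are not given here for fits of only the groups compared, other scaling, no filter, a block or DESeq2. The counts from those fits therefore do not set the members apart. Deviations of same-numbered samples correlated at -0.149 to 0.118 (LX-2) and -0.0206 to 0.0885 (HMLE), so they did not deviate together over all genes kept. This correlation cannot exclude a shared effect of the replicate number on some genes. In HMLE, MKI67 and CENPF were higher in replicate 1 in 6 of 7 groups, and CDK6 in 7 of 7.

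Leaving out 1 library at a time gave 6 to 9 for HMLE AA_Dep shATF4 vs shCtrl, 11 to 12 for HMLE shATF4 Twist_OE vs DMSO, 2 to 20 for LX-2 AA_Dep shATF4 vs shCtrl, 7 to 10 for LX-2 DMSO shATF4 vs shCtrl, 10 to 12 for LX-2 TGFbeta shATF4 vs shCtrl, 5 to 40 for LX-2 Thapsigargin shATF4 vs shCtrl, 2 to 24 for LX-2 response to AA_Dep shATF4 minus shCtrl, 6 to 37 for LX-2 response to Thapsigargin shATF4 minus shCtrl, 14 to 19 for LX-2 shATF4 AA_Dep vs DMSO, 10 to 15 for LX-2 shATF4 TGFbeta vs DMSO, 4 to 14 for LX-2 shCtrl TGFbeta vs DMSO and 18 to 40 for shCtrl response to Thapsigargin LX-2 minus HMLE. The highest AA_Dep counts came without LX-2 shCtrl AA_Dep replicate 1, and the highest Thapsigargin counts in LX-2 from replacing shCtrl replicate 1 with the discordant replicate 2, and there the sign turned for 6 genes. The share of all genes called in each fit that left out a library is not given here, so these counts do not set the members apart. Over these fits E2F2 ranged from -1.13 to 0.39 against DMSO, from -0.87 to 0.60 between hairpins, from -0.65 to 0.87 for the response and from -1.21 to 0.24 between lines. E2F7 ranged from -1.30 to 1.70 and, for the response, from -1.25 to 1.79. Between hairpins CCND1 ranged from -0.58 to 0.55 and CCNF from -0.42 to 0.69, and between lines CDC25B ranged from -0.76 to 0.51 and MYBL2 from -1.45 to 0.18. With all 16 libraries it turned for E2F2 (-0.37 between hairpins and -0.15 for the response), CCND1 (-0.17), CCNF (-0.012) and CDC25B (0.019 between lines). The cause was not tested. Library totals ran from 14551191 to 23243132 counts. In HMLE the AA_Dep libraries held 15956909 to 16964896 counts and every other library at least 19802962. Whether depth played a part was not tested, and groups with 1 library have no spread of their own.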

Other observations

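Among 65 further cell cycle genes, E2F7, a repressor of E2F targets, had 119.9 and 179 CPM in LX-2 shCtrl AA_Dep libraries, against 56.1 and 52.0 CPM in DMSO, a rise of 1.497 ± 0.14 (edgeR adjusted p = 4.71e-07; adjusted p = 0.147 with all 16 libraries). The AA_Dep response was lower with shATF4 by 1.45 ± 0.20 (edgeR adjusted p = 0.000294; adjusted p = 1 with 16). MYBL2, a partner of the MuvB complex at CHR promoters, had 207 and 195 CPM in LX-2 shATF4 Thapsigargin libraries, against 498 and 479 CPM in DMSO, and fell by 1.26 ± 0.087 (edgeR adjusted p = 1.99e-08; adjusted p = 0.0816 with 16).

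CDKN1A, the CDK inhibitor p21, had 457 and 439 CPM in HMLE shCtrl Thapsigargin libraries, against 199 and 197 CPM in DMSO, a rise of 1.17 ± 0.044 (edgeR adjusted p = 1.3e-13). In LX-2 shCtrl cells it had 81.1 and 63.8 CPM under AA_Dep, against 27.1 and 30.2 CPM, a rise of 1.37 ± 0.11 (edgeR adjusted p = 8.67e-08; adjusted p = 0.00264 with 16). CDKN2B, the CDK4 and CDK6 inhibitor p15, had 57.1 and 56.4 CPM in HMLE shCtrl AA_Dep libraries, against 19.1 and 15.4 CPM in DMSO, a rise of 1.72 ± 0.096 (edgeR adjusted p = 1.71e-11). MYC, a transcription factor of growth, had 627 CPM in the HMLE shATF4 AA_Dep library, against 325 and 347 CPM with shCtrl (0.90 ± 0.058, edgeR adjusted p = 2e-09).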
